A study of Mus musculus with 16 samples.

Results

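From a table of gene expression in mouse kidney, 9 genes of the complement system were read: C3, Cfb, C1qa, C1qb, C1qc, C1s1, C4b, Cfi and Cd55. They were chosen by symbol, as components and regulators of complement. All 9 are among the 46078 genes listed and among the 15014 genes tested, which reached 1 TPM in at least 4 libraries. TPM divides the reads counted for a gene by the length of its exons and brings every library to the same sum, so levels of different genes can be set side by side on this scale.

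Complement is a cascade of plasma proteins that marks surfaces for uptake and punctures membranes. The classical pathway starts when C1q, built from the C1qa, C1qb and C1qc chains, binds an immune complex or a dying cell. The protease C1s, activated by C1r, then cleaves C4 and C2. The alternative pathway amplifies deposited C3 with factor B (Cfb) and factor D, and it is restrained by factor I (Cfi), which cleaves C3b and C4b, and by Cd55, a membrane protein that speeds the decay of the C3 convertases. Liver makes most plasma complement, tubular epithelium can make C3 locally, and tissue macrophages are the main source of C1q.

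The study addressed cisplatin injury of the kidney with and without preconditioning. All mice were C57BL/6, aged 20 weeks, and kidneys were taken 72 h after an intraperitoneal injection, following perfusion with phosphate-buffered saline. The 16 libraries form 4 groups of 4: 0.9% saline with no preconditioning (BL_vehicle, the saline group), cisplatin with no preconditioning (BL_cisplatin), cisplatin after 4 weeks of calorie restriction (CR_cisplatin) and cisplatin after 3 days with hypoxic spells of 2, 4 and 8 h (HP_cisplatin). No preconditioned mice given saline are among these groups, so preconditioning alone was not measured. Whether every library came from its own mouse is not given, so p-values measure the spread between these libraries. Whole kidney RNA was sequenced, so fewer cells of a type and less RNA per cell cannot be told apart.

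Libraries differed in ways that bear on the values below. Recovered reads ranged from 49180903 to 62604521 per library. Library titles carry 1 of 2 prefixes, whose meaning the labels do not give: the 4 BL_cisplatin libraries and CR_cisplatin 1 share the first, and all others the second, so for BL_cisplatin against saline or against HP_cisplatin the prefix and the group cannot be told apart. The injury marker Havcr1 (KIM-1) was at 0.306 to 1.33 TPM in the saline group, 298 to 489 in BL_cisplatin and 0.317 to 1.94 in CR_cisplatin. In HP_cisplatin it was at 582, 51.0, 409 and 0.473 TPM in libraries 1 to 4, so HP_cisplatin 4 stood apart from its group. HP_cisplatin 4 was also the library closest to CR_cisplatin 4: the squared difference in read share, over 14049 genes, was 1.90 times that of counting error alone, against at least 3.63 in the other 119 of 120 pairs of libraries. Whether these 2 libraries come from separate mice and carry the right group label was not tested, and the HP_cisplatin results of C3, Cfb, Cd55 and C1s1 are also given without them. Kidney identity was seen in the summed level of 8 proximal tubule markers, 4000 to 4830 TPM in saline, 374 to 589 in BL_cisplatin, 3930 to 4500 in CR_cisplatin and 615 to 3980 in HP_cisplatin.

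The start regions of C3 and Cd55, which rose together, and of C1qb and C1qc, neighbours on chromosome 4 whose levels moved together, are shown from RefSeq (build GRCm38.p6). Each runs from 250 bases before to 50 after the transcript start, on the minus strand, 5′ to 3′. Capitals mark matches to 6 motifs of factors known from inflammation and myeloid cells.
C3, chr17:57228087-57228386: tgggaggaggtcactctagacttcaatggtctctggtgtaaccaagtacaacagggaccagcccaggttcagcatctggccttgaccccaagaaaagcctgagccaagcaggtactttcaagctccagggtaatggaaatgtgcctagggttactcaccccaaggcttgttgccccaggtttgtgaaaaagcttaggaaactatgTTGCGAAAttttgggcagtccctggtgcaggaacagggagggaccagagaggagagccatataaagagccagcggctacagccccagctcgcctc
Cd55, chr1:130462695-130462994: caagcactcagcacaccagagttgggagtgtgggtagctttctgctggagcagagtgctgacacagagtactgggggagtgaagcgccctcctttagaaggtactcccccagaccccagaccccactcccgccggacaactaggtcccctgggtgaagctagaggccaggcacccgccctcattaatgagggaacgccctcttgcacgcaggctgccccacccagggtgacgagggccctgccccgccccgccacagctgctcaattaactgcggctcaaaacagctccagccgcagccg
C1qb, chr4:136886151-136886450: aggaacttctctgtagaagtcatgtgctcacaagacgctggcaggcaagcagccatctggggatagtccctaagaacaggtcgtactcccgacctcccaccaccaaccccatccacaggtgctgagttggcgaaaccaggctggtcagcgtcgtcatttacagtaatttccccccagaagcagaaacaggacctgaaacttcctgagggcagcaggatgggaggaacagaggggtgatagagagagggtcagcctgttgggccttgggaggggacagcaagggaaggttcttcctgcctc
C1qc, chr4:136892865-136893164: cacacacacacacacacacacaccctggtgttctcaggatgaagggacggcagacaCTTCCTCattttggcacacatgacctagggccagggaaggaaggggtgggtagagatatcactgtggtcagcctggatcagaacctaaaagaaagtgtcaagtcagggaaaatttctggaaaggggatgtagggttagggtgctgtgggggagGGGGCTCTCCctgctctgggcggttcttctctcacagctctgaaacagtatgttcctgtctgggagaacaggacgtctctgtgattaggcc
The C3 window holds a C/EBP match, TTGCGAAA, whose first base lies at -45 from the start. The C1qc window holds an NF-kB consensus match, GGGGCTCTCC, at -41, and a PU.1 match on the opposite strand, CTTCCTC, at -194. The Cd55 and C1qb windows hold none of the 6 motifs. The C1s1 start region, in 2 windows, held a C/EBP match, TTAGGCAA, at -242 in 1 of them. These 5 of 9 genes have windows in the table. Both strands were searched for C/EBP (TTGCNNAA), STAT (TTCNNNGAA), AP-1 (TGANTCA), PU.1 (GAGGAAG), an interferon response element (GAAANNGAA) and the NF-kB consensus, and no 2 matches overlapped. Of 32544 windows of the same length, 10.8% hold C/EBP, 8.33% STAT, 7.79% AP-1, 13.4% PU.1, 8.53% the interferon element and 4.53% NF-kB. These letters are common, and a match is a description of the window alone.

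C3, the protein on which all complement pathways converge, showed the largest change of the 9 genes. Its levels were 1.92, 3.14, 4.42 and 3.10 TPM in the saline group and 92.6, 66.8, 70.3 and 151 TPM in BL_cisplatin. CR_cisplatin held 3.71, 4.57, 3.20 and 11.0 TPM, and HP_cisplatin 94.3, 144, 105 and 10.5 TPM. Every BL_cisplatin library lay above every saline and every CR_cisplatin library, while HP_cisplatin libraries 1 to 3 lay among the BL_cisplatin values and library 4 beside CR_cisplatin 4. The mean was 3.14 ± 1.02 TPM (SD, n = 4) in saline, 95.2 ± 39.0 in BL_cisplatin, 5.61 ± 3.62 in CR_cisplatin and 88.7 ± 56.4 in HP_cisplatin. The log2 fold change, here and below on log2(TPM + 1), of BL_cisplatin against saline was 4.49 (95% interval 3.16 to 5.83), with a limma adjusted p of 5.97e-05. C3 lies at chr17:57203970-57228136 on the minus strand (ENSMUSG00000024164, GRCm38), and from 402 to 31585 reads per library stood behind these values.

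In CR_cisplatin C3 was lower than in BL_cisplatin by a log2 fold change of -3.92 (SE 0.62, limma adjusted p 0.000126), and by -4.25 (adjusted p 3.28e-07) without CR_cisplatin 4 and HP_cisplatin 4. The CR_cisplatin library with the prefix of the BL_cisplatin libraries, CR_cisplatin 1, was at 3.71 TPM, so the gap was as wide within that prefix. Against saline, C3 in CR_cisplatin differed by 0.57 (95% interval -0.76 to 1.91) and did not pass the test. HP_cisplatin against BL_cisplatin gave -0.51 (95% interval -1.84 to 0.83, limma adjusted p 0.55), and 0.32 with adjusted p 0.423 without CR_cisplatin 4 and HP_cisplatin 4. C3 was higher in HP_cisplatin than in saline by 3.99 (adjusted p 0.00563), with no overlap, a call lost with only the groups compared (0.134) and at 4.81 (1.71e-07) without those 2 libraries. It was lower in CR_cisplatin than in HP_cisplatin by a log2 fold change of -3.41 (adjusted p 0.0275), with overlap through HP_cisplatin 4. That last call was lost without any 1 CR_cisplatin library, without HP_cisplatin 1 and without HP_cisplatin 3 (adjusted p 0.052 to 0.0976), and with no filter, only the groups compared or the title prefix as a term (0.0581, 0.163 and 0.0625). Without the close pair of CR_cisplatin 4 and HP_cisplatin 4 it was -4.57 (adjusted p 6.85e-07).

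**Figure D1:**
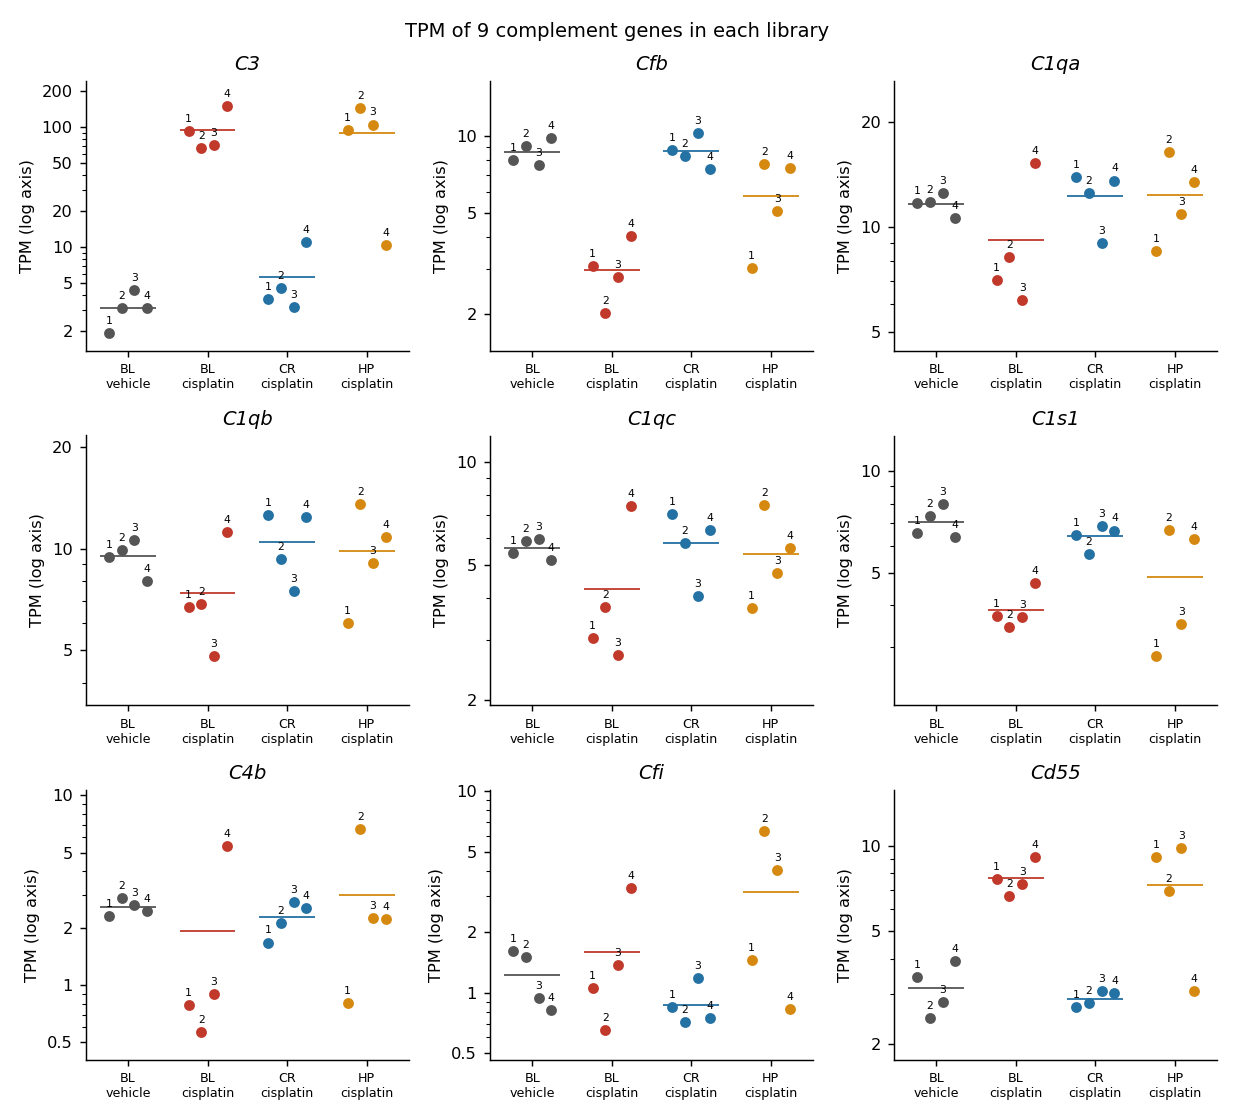
TPM (log axes) of the 9 complement genes in the 4 libraries of each group; points are libraries, with their number, and lines are group means. C3 and Cd55 were high in BL_cisplatin and in HP_cisplatin 1 to 3, and Cfb and C1s1 were low in BL_cisplatin. BL_cisplatin 4 and HP_cisplatin 2 were the highest libraries in C3, C1qa, C1qc and C4b.

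Cfb, factor B, is the protease subunit that joins C3b in the alternative pathway convertase. It moved opposite to C3. It was at 8.04, 9.11, 7.70 and 9.77 TPM in saline and 3.09, 2.02, 2.81 and 4.05 TPM in BL_cisplatin. CR_cisplatin held 8.78, 8.29, 10.2 and 7.43 TPM and HP_cisplatin 3.05, 7.71, 5.05 and 7.45 TPM. BL_cisplatin was below all saline and all CR_cisplatin libraries, and HP_cisplatin was spread from the BL_cisplatin level (library 1) to the saline level (libraries 2 and 4). The mean fell from 8.66 ± 0.956 to 2.99 ± 0.836 TPM (SD, n = 4), a log2 fold change of -1.29 (SE 0.21, limma adjusted p 0.000136). CR_cisplatin was higher than BL_cisplatin by 1.29 (adjusted p 0.000144), and against saline it differed by 0.00 (95% interval -0.45 to 0.45). HP_cisplatin was higher than BL_cisplatin by 0.73 (adjusted p 0.0217). This call was lost in 7 of 25 alternatives, among them without BL_cisplatin 2 (0.0652), BL_cisplatin 3 (0.054), HP_cisplatin 2 (0.0712) or HP_cisplatin 4 (0.0625), with only the groups compared (0.135) with the title prefix as a term (0.479) and without CR_cisplatin 4 and HP_cisplatin 4 (0.61, adjusted p 0.0734). The Cfb gene (chr17:34856374-34862518, minus strand, ENSMUSG00000090231) shares 2246 exon bases, 79.5% of its exon length, with the same-strand model Gm20547, which is listed at 0 in every library, so how reads of the shared bases were assigned makes its level uncertain.

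The opposite moves of C3 and Cfb changed their proportion. C3 over Cfb, as a ratio of TPM, was 0.238 to 0.574 in the saline libraries, 25.0 to 37.3 in BL_cisplatin and 0.314 to 1.48 in CR_cisplatin. In HP_cisplatin it was 30.9, 18.7, 20.9 and 1.41. Because the Cfb level is uncertain through its shared exon bases, so are the size of this ratio and the shares and sums that follow. C3 made up 3.80 to 7.96% of the summed TPM of the 9 genes in saline and 67.5 to 73.7% in BL_cisplatin. In CR_cisplatin the share was 6.43 to 17.2%, and in HP_cisplatin it was 72.6, 66.8, 68.1 and 17.4%. The 9 genes summed to 50.3 to 55.5 TPM in saline, 99.0 to 212 in BL_cisplatin and 47.8 to 63.8 in CR_cisplatin.

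**Figure D2:**
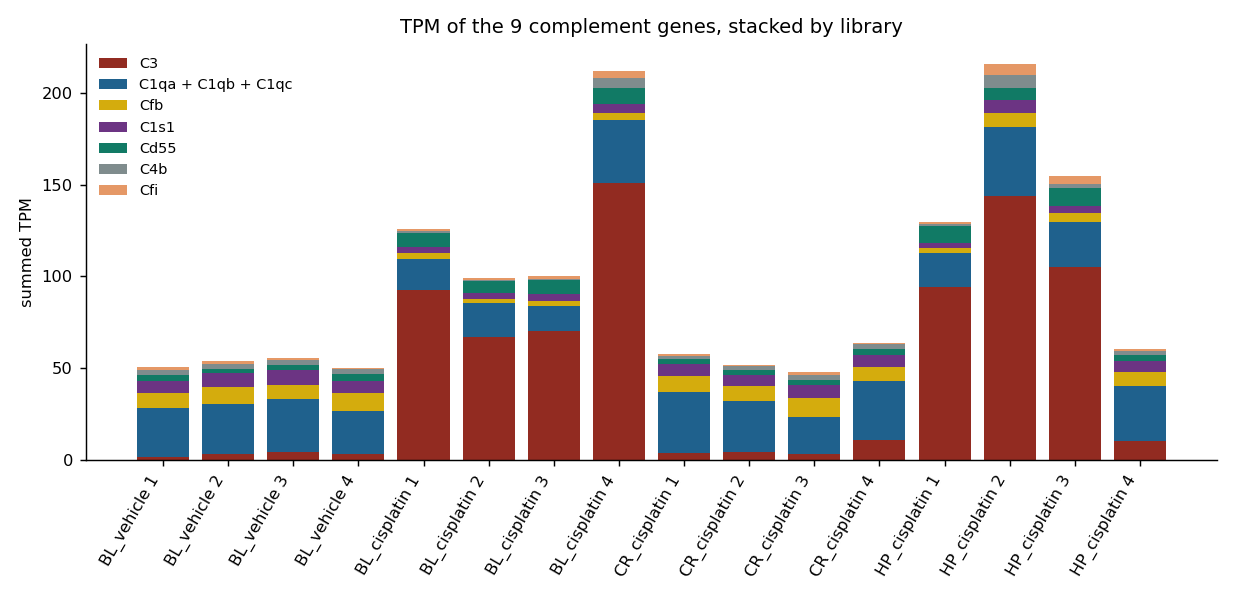
Summed TPM of the 9 complement genes in each of the 16 libraries, stacked by gene, with the 3 C1q chains joined. C3 was the largest block in the 4 BL_cisplatin libraries and in HP_cisplatin 1 to 3 (66.8 to 73.7% of the sum), and the C1q chains were the largest in the other 9 libraries.

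Cd55, the membrane inhibitor of the C3 convertases, moved in the direction of C3. Its levels were 3.44, 2.47, 2.81 and 3.93 TPM in saline and 7.66, 6.68, 7.33 and 9.17 TPM in BL_cisplatin. CR_cisplatin held 2.70, 2.79, 3.07 and 3.03 TPM, and HP_cisplatin 9.16, 6.95, 9.85 and 3.09 TPM. Saline and BL_cisplatin did not overlap, CR_cisplatin lay inside the saline range, and HP_cisplatin 4 was again the library apart from its group. The log2 fold change of BL_cisplatin against saline was 1.07 (SE 0.23, limma adjusted p 0.00105). CR_cisplatin was lower than BL_cisplatin by a log2 fold change of -1.15 (adjusted p 0.000612) and, with no overlap, lower than HP_cisplatin by -0.99 (adjusted p 0.0275), although HP_cisplatin 4 (3.09 TPM) was next to the highest CR_cisplatin library (3.07). The latter call was lost in the same alternatives as that of C3, and without CR_cisplatin 4 and HP_cisplatin 4 it was -1.31 (adjusted p 2.92e-05). HP_cisplatin against BL_cisplatin gave -0.16 (95% interval -0.66 to 0.33, adjusted p 0.607), and 0.14 (0.482) without those 2 libraries. HP_cisplatin was higher than saline by 0.91 (adjusted p 0.0169), and without HP_cisplatin 3 or with only the groups compared the call was lost (0.0629 and 0.134), while without CR_cisplatin 4 and HP_cisplatin 4 it was 1.22 (2.22e-05). Cd55 lies at chr1:130439027-130462744, minus strand (ENSMUSG00000026399).

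C1s1 encodes the mouse C1s protease of the classical pathway. It was at 6.53, 7.36, 7.96 and 6.38 TPM in saline and 3.71, 3.44, 3.68 and 4.66 TPM in BL_cisplatin. CR_cisplatin held 6.44, 5.68, 6.88 and 6.66 TPM, and HP_cisplatin 2.83, 6.70, 3.52 and 6.30 TPM. BL_cisplatin was below every saline and CR_cisplatin library, and HP_cisplatin split into 2 low libraries (1 and 3) and 2 near saline (2 and 4). BL_cisplatin against saline gave a log2 fold change of -0.73 (SE 0.18, limma adjusted p 0.00289) and CR_cisplatin against BL_cisplatin 0.61 (SE 0.18, adjusted p 0.00882). HP_cisplatin against BL_cisplatin gave 0.20 (95% interval -0.19 to 0.59, adjusted p 0.405), and 0.07 (0.808) without CR_cisplatin 4 and HP_cisplatin 4. HP_cisplatin was lower than saline by a log2 fold change of -0.52 (adjusted p 0.0447), a call lost in 16 of 25 alternatives and held without CR_cisplatin 4 and HP_cisplatin 4 (-0.65, adjusted p 0.0117). C1s1 (chr6:124530345-124542359, minus strand, ENSMUSG00000038521) shares 18.4% of its exon bases with the antisense model Gm16567, which reached at most 0.0943 TPM. Whether counting used strand is not stated.

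With the title prefix as a term, C3 and Cfb kept their calls in BL_cisplatin against saline (adjusted p 0.035 and 0.0423, limma), while C1s1 (-0.74, adjusted p 0.134) and Cd55 (1.17, adjusted p 0.074) lost theirs at nearly the same size. In CR_cisplatin against BL_cisplatin the same term ended the call of C1s1 (0.62, adjusted p 0.109). Only CR_cisplatin holds both prefixes, so the size of this term rests on CR_cisplatin 1 against the rest of its group. Calls kept or lost with it therefore depend on that library and cannot separate prefix from group. Within the first prefix, CR_cisplatin 1 lay outside the BL_cisplatin range in all 4 genes, at 8.78 TPM for Cfb against 2.02 to 4.05, 6.44 for C1s1 against 3.44 to 4.66, and 2.70 for Cd55 against 6.68 to 9.17.

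The 3 chains of C1q lie side by side on the minus strand of chromosome 4: C1qb at 136880129-136886187, C1qc at 136889804-136893065 and C1qa at 136895917-136898803 (ENSMUSG00000036905, ENSMUSG00000036896 and ENSMUSG00000036887). C1qa was at 1.98 to 2.40 times and C1qb at 1.51 to 2.20 times the TPM of C1qc over the 16 libraries. C1qa was at 11.7, 11.8, 12.5 and 10.6 TPM in saline and 7.05, 8.20, 6.18 and 15.3 TPM in BL_cisplatin. It was at 13.9, 12.5, 8.97 and 13.6 TPM in CR_cisplatin and 8.51, 16.4, 10.9 and 13.5 TPM in HP_cisplatin. BL_cisplatin 1 to 3 lay below every saline library and BL_cisplatin 4 above every one. Summed over the 3 chains, saline held 26.6, 27.6, 29.0 and 23.8 TPM, BL_cisplatin 16.8, 18.8, 13.7 and 34.0, CR_cisplatin 33.5, 27.6, 20.5 and 32.4, and HP_cisplatin 18.3, 37.4, 24.7 and 29.9.

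None of the 3 chains passed the test in BL_cisplatin against saline over all 4 libraries. The log2 fold changes were -0.39 for C1qa (95% interval -0.89 to 0.10), -0.37 for C1qb (-0.88 to 0.14) and -0.41 for C1qc (-0.91 to 0.09), with limma adjusted p of 0.148, 0.182 and 0.131. Without BL_cisplatin 4 they were -0.64, -0.57 and -0.67, with adjusted p of 0.00751, 0.0391 and 0.00596. CR_cisplatin against BL_cisplatin gave 0.44, 0.47 and 0.44 (adjusted p 0.105, 0.0896 and 0.11), and 0.69, 0.67 and 0.69 without BL_cisplatin 4 (adjusted p 0.00495, 0.0175 and 0.00488). C1qb also passed there without CR_cisplatin 3 (0.61, adjusted p 0.0444).

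C4b, the mouse C4 that C1s cleaves to begin convertase assembly, showed that split more widely. It was at 2.32, 2.89, 2.66 and 2.47 TPM in saline and 0.791, 0.568, 0.904 and 5.44 TPM in BL_cisplatin. CR_cisplatin held 1.68, 2.13, 2.76 and 2.54 TPM, and HP_cisplatin 0.806, 6.67, 2.26 and 2.24 TPM. BL_cisplatin 4 and HP_cisplatin 2 were the 2 highest of the 16 libraries, while the other BL_cisplatin libraries were among the lowest. BL_cisplatin against saline gave a log2 fold change of -0.56 (95% interval -1.47 to 0.34, limma adjusted p 0.252), and -1.03 without BL_cisplatin 4 (adjusted p 0.0145). CR_cisplatin against BL_cisplatin gave 0.42 (adjusted p 0.389), and 0.89 without that library (adjusted p 0.0292). C4b (chr17:34728380-34743882, minus strand, ENSMUSG00000073418) has a near-identical copy, C4a, and how reads were divided between them is uncertain.

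Cfi, factor I, is the plasma protease that inactivates C3b and C4b with cofactors. Its levels were low, 1.61, 1.5, 0.94 and 0.822 TPM in saline and 1.05, 0.65, 1.37 and 3.28 TPM in BL_cisplatin. CR_cisplatin held 0.843, 0.711, 1.18 and 0.748 TPM, and HP_cisplatin 1.45, 6.31, 4.04 and 0.825 TPM. All groups overlapped, and HP_cisplatin 2 and 3 and BL_cisplatin 4 were the 3 highest libraries. The log2 fold change of BL_cisplatin against saline was 0.14 (95% interval -0.65 to 0.94, limma adjusted p 0.747), and no comparison passed over all libraries. Without HP_cisplatin 4, Cfi was lower in CR_cisplatin than in HP_cisplatin by a log2 fold change of -1.27 (adjusted p 0.00719) and higher in HP_cisplatin than in saline by 1.03 (adjusted p 0.0215). Cfi lies at chr3:129835884-129875332 on the plus strand (ENSMUSG00000058952), and 54 to 535 reads per library were recovered.

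Counted over the 9 genes, 4 passed the limma threshold of adjusted p 0.05 in BL_cisplatin against saline, where 66.8% of all genes tested passed. Of them 2 were higher (C3 and Cd55; 38.0% of all genes tested) and 2 lower (Cfb and C1s1; 28.8%). The median log2 fold change was -0.39 over the 9 and 0.08 over all genes tested. Without BL_cisplatin 4, 8 of the 9 passed, against 66.3% of all genes in that fit. CR_cisplatin against BL_cisplatin shares the BL_cisplatin libraries with that comparison, and there the same 4 genes passed, against 67.3% of all genes, 2 higher (29.8%) and 2 lower (37.4%). The median was 0.44 over the 9 and -0.08 over all genes tested. With TPM rescaled after leaving out the 10 most abundant genes and those of mitochondria and red blood cells, 18703 genes passed the filter, and 14974 of them were among the 15014. Over those 14974 the median was 0.24 and -0.24 in these 2 comparisons. The share of higher genes among those called was 67.3% in BL_cisplatin against saline (56.9% before rescaling), 33.3% in CR_cisplatin against BL_cisplatin (44.4%) and 32.4% in HP_cisplatin against BL_cisplatin (55.5%). The 4 calls kept their direction under it. In CR_cisplatin against BL_cisplatin 8 of the 9 also passed without BL_cisplatin 4 (66.6% of all genes). With no filter 4 of the 9 passed in each of the 2 comparisons, against 41.6% and 41.1% of all genes. Whether the share of the 9 lay below or above that of all genes thus depended on that library and on the filter.

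Differences with the hypoxia group were fewer. In HP_cisplatin against BL_cisplatin, Cfb alone of the 9 passed (29.4% of all genes tested), and it was higher (16.4%). In HP_cisplatin against saline 3 passed (29.3%), 2 higher (19.2%) and 1 lower (10.1%). In CR_cisplatin against HP_cisplatin 2 passed (24.3%), both lower in CR_cisplatin (15.0%). Without BL_cisplatin 4, 4 genes passed in HP_cisplatin against BL_cisplatin (28.4% of all genes), since C1qa (0.68, limma adjusted p 0.0178), C1qc (0.59, 0.0309) and C4b (0.99, 0.0408) joined Cfb. In CR_cisplatin against HP_cisplatin, Cfb (0.56, adjusted p 0.0611) passed without HP_cisplatin 2 (0.70, 0.043) or HP_cisplatin 4 (0.69, 0.0168). C1s1 (0.41, adjusted p 0.102) did the same there, at 0.56 (0.0431) and 0.53 (0.0236). In HP_cisplatin against saline, Cfb (-0.56, adjusted p 0.0566) passed without either library, at -0.70 (0.0323) and -0.69 (0.0167). Without CR_cisplatin 4 and HP_cisplatin 4, Cfb was at -0.69 there (0.0201) and in CR_cisplatin against HP_cisplatin at 0.75 (0.0197), and C1s1 in the latter at 0.52 (0.049). In CR_cisplatin against saline 0 of 9 passed with limma and 0.0533% of all genes tested did. At an unadjusted p under 0.05, also 0 of the 9 passed there, and 0 passed with voom on recovered reads, while 610 of the 15014 genes had such an unadjusted p.

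**Figure D3:**
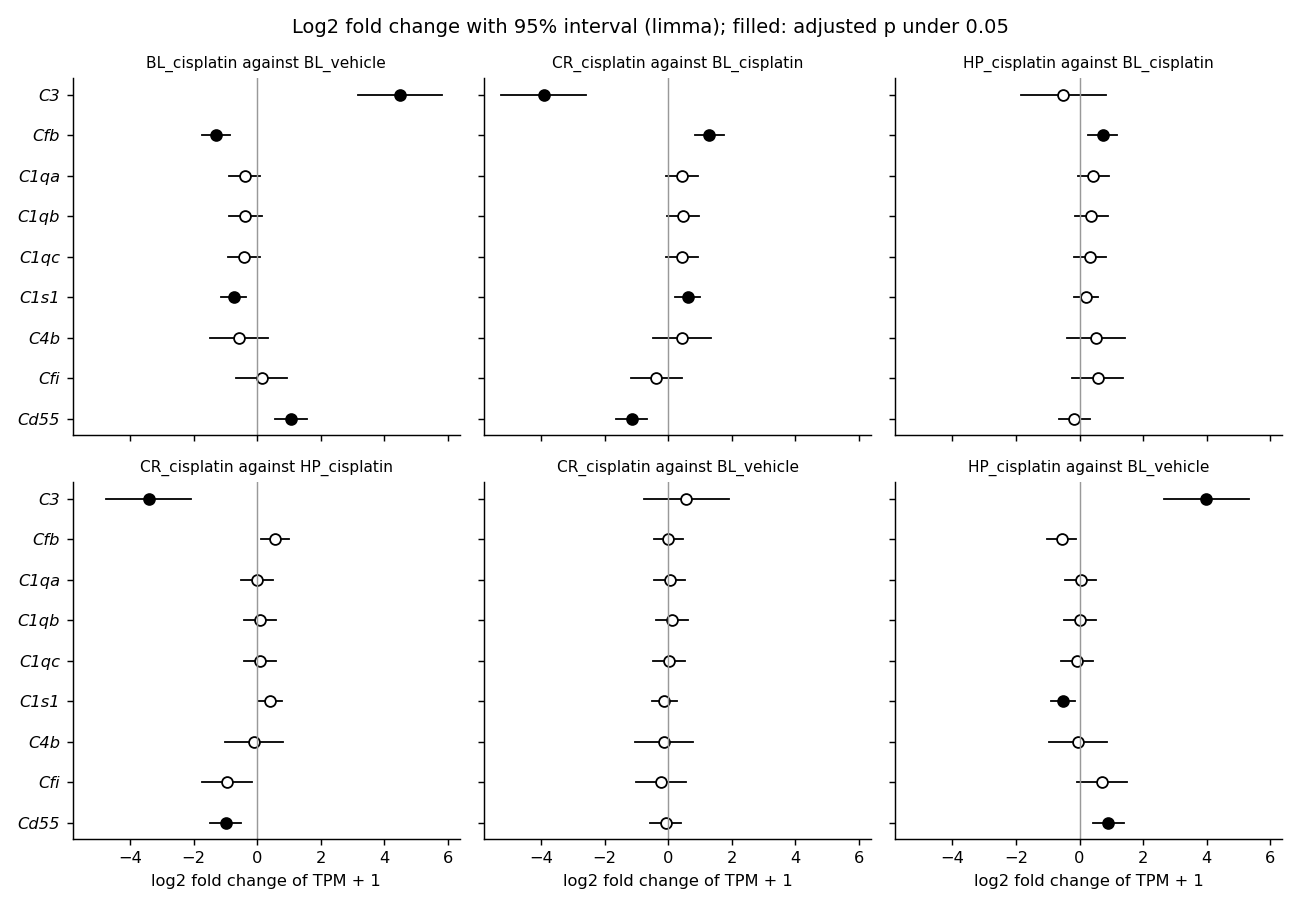
Log2 fold change of TPM + 1 for the 9 genes in 6 comparisons, with 95% intervals from limma (4 libraries per group); filled points passed an adjusted p of 0.05. C3 is farthest from 0 in BL_cisplatin against BL_vehicle (4.49), and no point is filled in CR_cisplatin against BL_vehicle.

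The libraries of the hypoxia group can be placed on a scale where the saline mean is 0 and the BL_cisplatin mean is 1, on log2(TPM + 1). For C3, HP_cisplatin 1 to 4 were at 1.01, 1.15, 1.05 and 0.34, and for Cd55 at 1.21, 0.88, 1.30 and -0.01. For Cfb they were at 0.97, 0.11, 0.52 and 0.14, and for C1s1 at 1.47, 0.08, 1.14 and 0.19. HP_cisplatin 2 was thus at the BL_cisplatin level for C3 and Cd55 but near the saline level for Cfb and C1s1. Havcr1 was at 1.08, 0.63, 1.02 and -0.03 on the same scale. CR_cisplatin libraries 1 to 3 were at 0.01 to 0.10 for C3 and CR_cisplatin 4 was at 0.35.

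The pattern across the 16 libraries was compared with tested genes outside complement by Pearson correlation of log2(TPM + 1), given as a description. Pseudogenes, genes without a symbol and those with a Gm or Rik name were left out. The libraries share their groups and prefixes. C3 was most like Bcl2l11 (0.98), Ctsb (0.98) and Mab21l3 (0.97). Cd55 was most like Slc38a6 (0.99), Rcan1 (0.98) and Csnk1a1 (0.98), Cfb most like Ppp1r21, Phyhipl and Fggy (0.99 each), and C1s1 most like Slfn5 (0.98), Aaed1 (0.97) and Tek (0.97). C1qa was most like Lcp1 (0.91), Fam73b (0.90) and Stat5a (0.89), C1qb most like Lcp1 (0.93), Scn7a (0.91) and Fam73b (0.87), and C1qc most like Coro1a (0.92), Nckap1l (0.90) and Lcp1 (0.90). Lcp1, Coro1a and Nckap1l are genes of the leukocyte actin skeleton. C4b was most like Pgrmc2, Fbxo31 and Ift46 (0.90 each), and Cfi most like Egfr (0.93), Vps13d (0.92) and Sp3 (0.92). Among the 9 genes, C3 and Cd55 were at 0.94, Cfb and C1s1 at 0.90, C1qa and C1qc at 0.99 and C3 and Cfb at -0.78.

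The wider complement list held 44 other genes, of which 19 passed the filter. In BL_cisplatin against saline 5 were higher, 8 lower and 6 did not pass, with a median log2 fold change of -0.15, against 66.8% of all genes called, 38.0% higher and 28.8% lower. In CR_cisplatin against BL_cisplatin 6 were higher and 4 lower (median 0.08; 67.3% of all genes called), and in HP_cisplatin against BL_cisplatin 3 were higher and 2 lower (0.15; 29.4%). HP_cisplatin had 3 higher and 1 lower against saline (29.3% of all genes called), and CR_cisplatin 1 higher and 2 lower against HP_cisplatin (24.3%). In CR_cisplatin against saline 0 of 19 passed with limma, 3 had an unadjusted p under 0.05, and voom on the recovered reads also called 0. The largest rise was in Clu, clusterin, an inhibitor of the membrane attack complex, at 45.6 to 62.7 TPM in saline and 263 to 395 in BL_cisplatin (log2 fold change 2.57, limma adjusted p 2.21e-05). It was at 67.9 to 101 TPM in CR_cisplatin and 95.2 to 200 in HP_cisplatin. Clu was lower in HP_cisplatin than in BL_cisplatin with no overlap (-1.15, adjusted p 0.00696). Itgam, the alpha chain of complement receptor 3, rose by 1.06 (adjusted p 6.35e-05) from under 1 TPM in every saline library. C7, a terminal component, rose by 0.73 and Thbd, thrombomodulin, by 0.72. C7 was at 3.1 to 6.09 TPM in saline and 6.76 to 9.92 in BL_cisplatin. It also lay above the saline range in CR_cisplatin (6.69 to 8.2) and HP_cisplatin (7.25 to 13.6).

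The largest falls were in the terminal genes C8a and C8g, chains of C8. C8a was at 8.37, 7.54, 8.86 and 8.80 TPM in saline and 0.672, 0.720, 0.532 and 0.582 TPM in BL_cisplatin. CR_cisplatin held 7.75, 7.33, 7.25 and 6.00 TPM, and HP_cisplatin 0.586, 3.32, 4.99 and 6.01 TPM. BL_cisplatin was below every saline and CR_cisplatin library, and HP_cisplatin ran from the BL_cisplatin level (library 1) to the CR_cisplatin level (library 4). The log2 fold change of C8a against saline was -2.53 (limma adjusted p 4.73e-05), and that of C8g -2.10 (adjusted p 8.54e-05). C8b, the chain that completes C8, was at most 0.0107 TPM in any library. Cpn1, which trims the anaphylatoxins, fell by 1.07 and Mbl1, a mannose-binding lectin, by 0.62 on the log2 scale (adjusted p 0.0025 and 0.0343). The Mbl1 call was lost in several alternatives, for example without BL_cisplatin 3 (-0.48, adjusted p 0.111), and with the title prefix as a term the calls of Cpn1, Mbl1, Thbd and C7 were lost (adjusted p 0.193, 0.381, 0.0813 and 0.192). Of the 25 genes under the filter, the receptors C3ar1 and C5ar1 were at 0.191 to 0.823 and 0.125 to 1.23 TPM, and Hc, which encodes C5, was at most 0.0846 TPM.

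**Figure D4:**
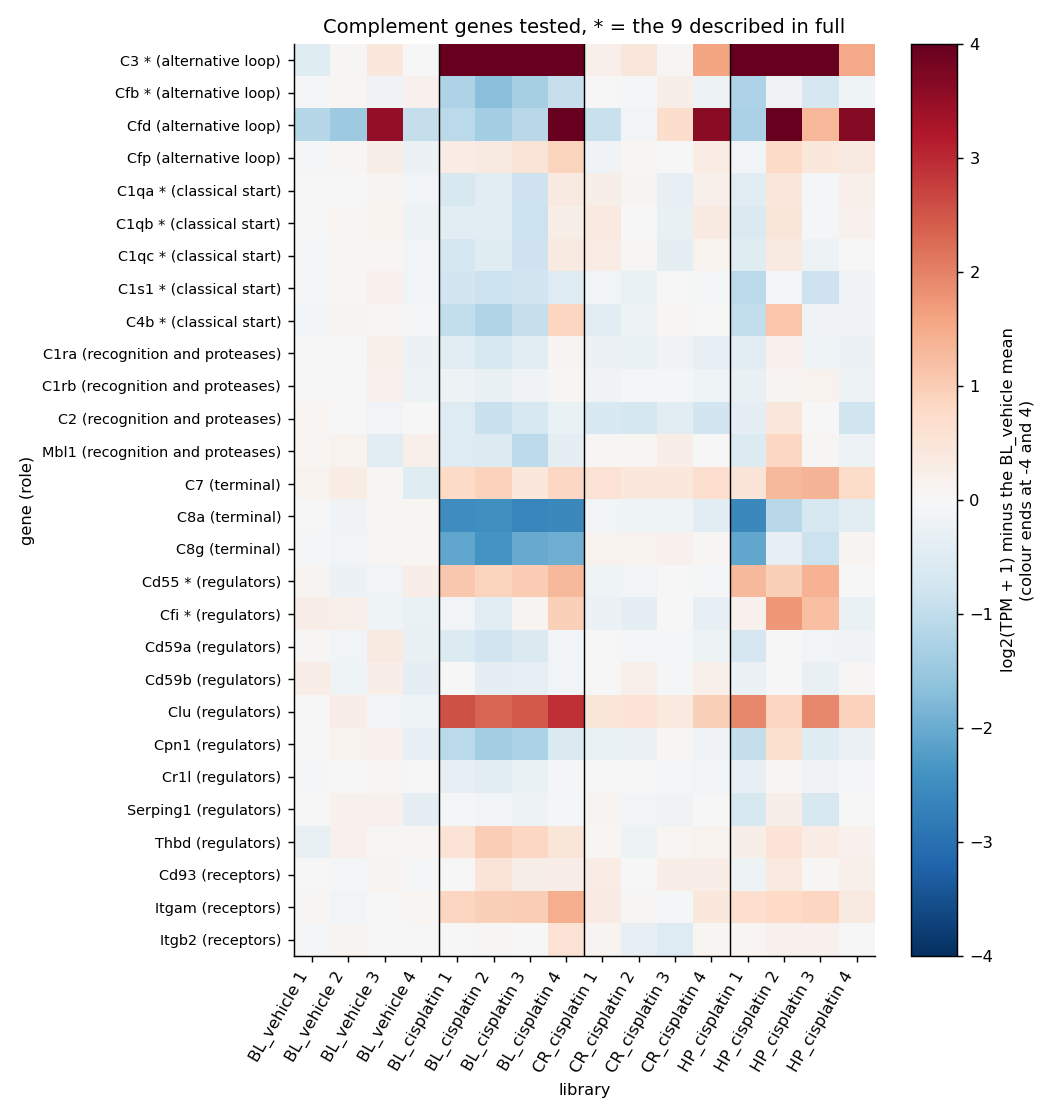
Heat map of 28 complement genes tested (rows, by role, with * on the 9 described in full) in 16 libraries (columns), as log2(TPM + 1) minus the BL_vehicle mean. C3 and Clu were raised and C8a and C8g lowered in all 4 BL_cisplatin libraries, and Cfd was at 31.5 TPM or more in 1 or 2 libraries of every group.

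Cfd, factor D or adipsin, the protease that cleaves factor B, is made mainly by fat. It was singled out after its values were seen. It was at 0.292, 0.0264, 31.5 and 0.465 TPM in saline, 0.324, 0.0869, 0.312 and 120 in BL_cisplatin, 0.521, 1.62, 3.57 and 33.1 in CR_cisplatin and 0.137, 142, 6.09 and 34.7 in HP_cisplatin. The 5 libraries at 31.5 TPM or more were 1 or 2 in each group. The 10 adipocyte markers, a list also added after the values were seen, summed to 10.6, 11.6, 75.4 and 14.7 TPM in saline and to 25.5, 28.2, 34.1 and 338 in BL_cisplatin. They summed to 12.8, 13.7, 17.6 and 188 in CR_cisplatin and to 23.7, 207, 39.8 and 182 in HP_cisplatin. The 5 libraries high in Cfd were those with the highest marker sums. Of the 9 tested markers 1, Cidec, passed in BL_cisplatin against saline (3.45, limma adjusted p 0.00168), where 66.8% of all genes tested passed. Lep was at 0 in 1 saline library and no other marker was at 0 in any library. BL_cisplatin 4 and HP_cisplatin 2, the 2 highest in Cfd, were also the 2 highest in C3, C1qa, C1qc and C4b. In C3 they were at 151 and 144 TPM. BL_vehicle 3 (4.42 TPM) and CR_cisplatin 4 (11.0 TPM) were the highest of their groups in C3, and HP_cisplatin 4 (10.5 TPM) was the lowest of its group. CR_cisplatin 4 and HP_cisplatin 4, with sums of 188 and 182, held C4b at 2.54 and 2.24 TPM, within or near the saline range. The part of fat in the levels of C3, C1q, C4b and Cfi was not tested.

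Leaving out both BL_cisplatin 4 and HP_cisplatin 2 left the calls of C3, Cfb, C1s1 and Cd55 in BL_cisplatin against saline in place and added those of C1qa, C1qb, C1qc and C4b, all lower, for 8 of 9 (66.7% of all genes), the count that leaving out BL_cisplatin 4 alone gave. In HP_cisplatin against saline the same step left C1qa at -0.10, C1qb at -0.15, C1qc at -0.22 and C4b at -0.42, none of which passed the test.

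Macrophage markers split in the same comparison. Of 15 markers 11 were tested, and in BL_cisplatin against saline 2 were higher, 3 lower and 6 did not pass, where 66.8% of all genes tested passed. Cd68, a lysosomal protein, was at 1.52 to 2.06 TPM in saline and 41.3 to 68.1 in BL_cisplatin, and Cd14 was at 1.28 to 2.49 and 21.8 to 31.2. Csf1r, which encodes the receptor that macrophages need to survive, was at 13.0, 12.5, 14.5 and 10.4 TPM in saline and 3.75, 3.27, 3.31 and 5.85 in BL_cisplatin, a log2 fold change of -1.45 (limma adjusted p 0.000277). Adgre1, which encodes F4/80, was at 1.37 to 1.98 TPM in saline, and at 0.544, 0.387, 0.379 and 1.36 in BL_cisplatin. As for C1q, BL_cisplatin 4 was the highest of its group in Csf1r and Adgre1. Summed over the 15, the range was 43.0 to 58.3 TPM in saline, 114 to 129 in BL_cisplatin, 35.5 to 53.7 in CR_cisplatin and 46.4 to 95.3 in HP_cisplatin, and no marker was at 0 in any library. By group means, the higher sum in BL_cisplatin lay in Cd68 (56.7 TPM against 1.72 in saline) and Cd14 (26.2 against 1.8). The mean sum of the other markers was lower in BL_cisplatin than in saline. The part of macrophage content in the C1q levels was not tested.

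Neutrophil and hepatocyte genes were read the same way. The 6 neutrophil markers summed to 0.378 to 0.548 TPM in saline and 5.60 to 8.04 in BL_cisplatin. They summed to 0.525 to 3.54 TPM in CR_cisplatin and 1.61 to 3.95 in HP_cisplatin. Mpo was at 0 in all but 1 library and Ly6g at 0 in every saline and CR_cisplatin library. Of the 10 hepatocyte genes, which share a liver origin with plasma complement, 9 were tested. In BL_cisplatin against saline 5 were higher and 4 lower, where 66.8% of all genes tested passed. Serpina1a was at 14.5 to 19.2 TPM in saline and 35.5 to 61.5 in BL_cisplatin, Apoa1 at 0.272 to 0.476 and 0.955 to 2.66, and Fgb at 0.0705 to 0.154 and 26.9 to 39.9. The 4 lower genes were Alb, Ttr, Apoa2 and Apoh. Alb was at 1.59 to 3.55 TPM in saline and 0.156 to 2.92 in BL_cisplatin, and Ttr at 52.9 to 92.1 and 6.12 to 7.75. Apoa2 was at 3.86 to 5.1 TPM in saline and 0.747 to 2.43 in BL_cisplatin, and Apoh at 2.54 to 5.37 and 1.12 to 1.85. The 10 hepatocyte genes summed to 91.4 to 135 TPM in saline, 528 to 792 in BL_cisplatin, 65.9 to 150 in CR_cisplatin and 81.2 to 443 in HP_cisplatin, and most of the sum in BL_cisplatin was Fga (229 to 374 TPM) and Fgg (209 to 334 TPM). Ahsg, a defining hepatocyte gene, was at 0 in some libraries of each group and at most 0.534 TPM. The part of these cell types in the C3 levels was not tested.

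**Figure D5:**
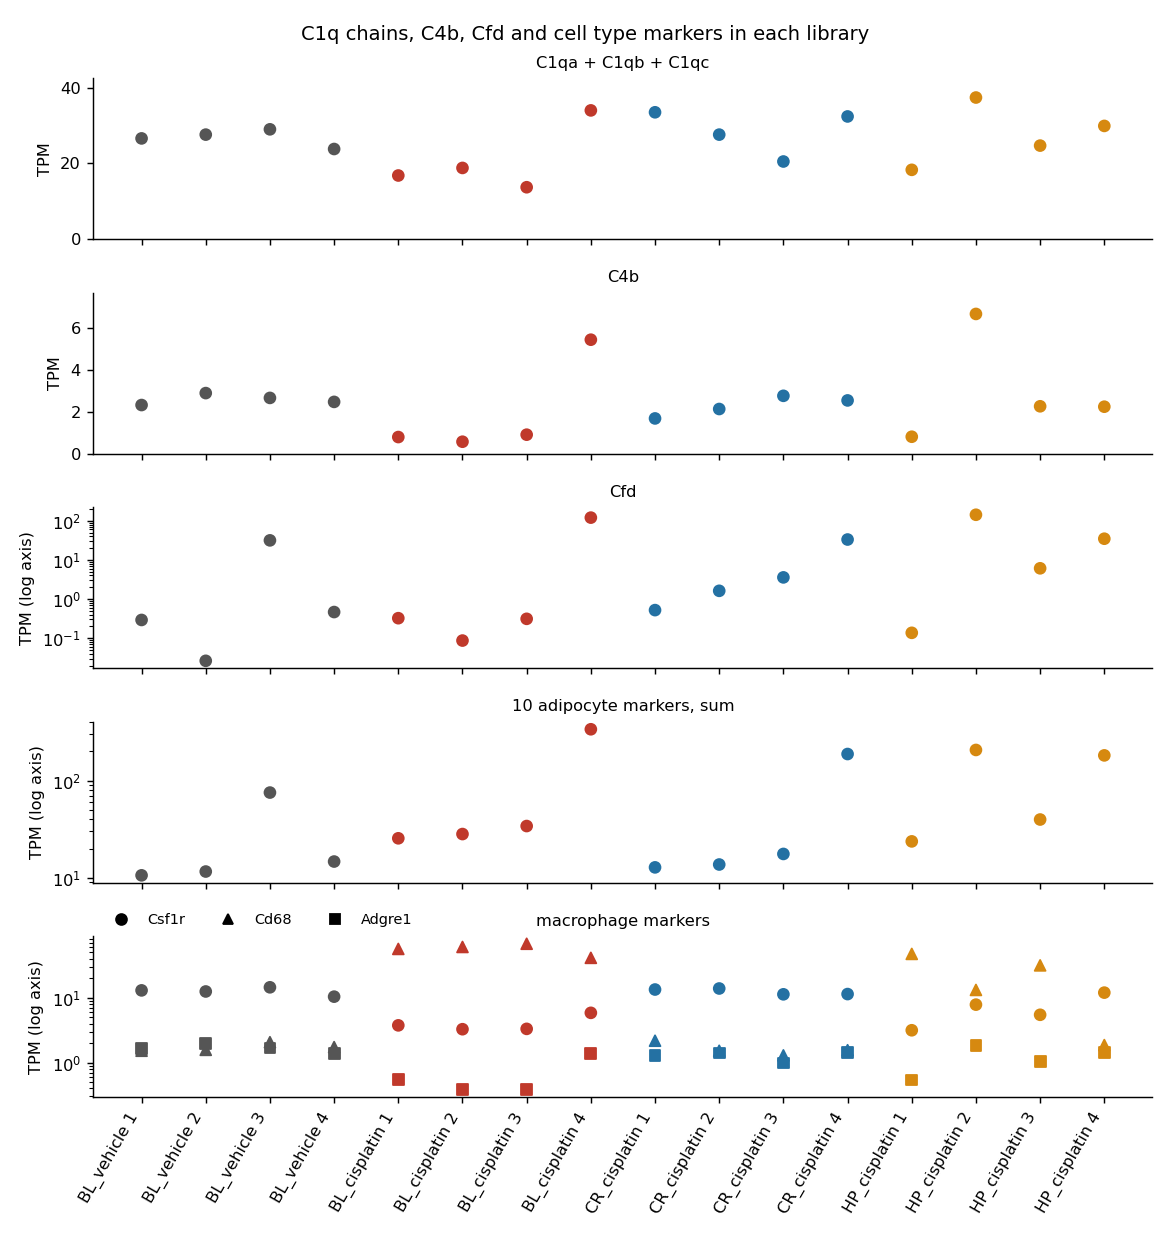
Summed C1q chains, C4b and Cfd, the sum of 10 adipocyte markers, and 3 macrophage markers in each library, in TPM, with log axes in the lower 3 panels. BL_cisplatin 4 and HP_cisplatin 2 are the highest libraries in the C1q sum, C4b, Cfd and the adipocyte sum, and Cd68 is high where Csf1r is low.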

How the data were processed

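Kidney RNA of mice was sequenced after removal of ribosomal RNA (16 libraries). The authors deposited 1 table of TPM per gene and library, and its values sum to 1000000 in each library. The submitters' processing notes name STAR 2.5, featureCounts, Subread 1.5 and the builds mm10 and GRCm38, with no role or setting. Groups follow the labels for injection and preconditioning, and replicate numbers follow the order of the samples and pair nothing. Genes that reached 1 TPM in 4 or more libraries were tested with limma 3.58.1 (R 4.3.3) on log2(TPM + 1), with all 16 libraries, group as the only term, a trended and robust prior variance, 2-sided tests and Benjamini-Hochberg adjustment over all 15014 genes (threshold 0.05). The fit was also run on simulated reads in which a small part of the genes changed, in BL_cisplatin only. Such data do not cover changes in most genes or groups of unequal spread, as seen here.

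Whole reads were recovered from the TPM with GENCODE M21 exon lengths: 76.3% of the 32198 genes with reads were whole within 0.0001 reads in every library with the annotated length (all 9 members among them), and the other 7627 with a length found by search. They served for depth, for voom (16762 genes with a mean of at least 20 reads) and for the closeness of libraries (14049 genes). Gene positions come from GENCODE M21 (GRCm38) and start regions from RefSeq.

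Members are the 9 genes by symbol. Named genes of the wider list are up to 8 with the largest change past the threshold in BL_cisplatin against BL_vehicle and up to 3 more in each other comparison, and 3 most alike genes per member. 1 gene of the wider list is not reported here. The members and lists were chosen with earlier results of these data known. Alternatives were a pseudocount of 0.1, no filter, only the groups compared, the title prefix as a term, TPM rescaled after leaving out the 10 most abundant genes and those of mitochondria and red blood cells, no trend or robust prior, voom, each library left out, and 2 pairs of libraries left out that were chosen after seeing the data.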

Additional observations from a re-analysis of the deposited data

Results flagged for a closer look

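Within groups of 4, libraries were compared on log2(TPM + 1). A library is singled out here when its gap to the nearest other library exceeds Dixon's 95% critical share of the group's range. Chance passes this limit in about 1 of 20 groups. Of 36 groups (9 genes in 4 groups), 2 had such a library. C3 in HP_cisplatin 4, at 10.5 TPM, was far below the other 3 libraries of its group on that scale (3.52 against 6.57, 7.18 and 6.73). C4b in BL_cisplatin 4, at 5.44 TPM, was far above the other 3 of its group.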

How the results depend on the processing

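In BL_cisplatin against BL_vehicle and CR_cisplatin against BL_cisplatin, C3 and Cfb passed in all 25 alternatives and Cd55 and C1s1 in at least 24, with the same direction throughout. Alternatives that left out only libraries of groups not compared could not move these fold changes, only the spread behind the p-values. With the title prefix as a term, 2 members and 3413 genes passed in BL_cisplatin against BL_vehicle, 6327 genes in CR_cisplatin against BL_cisplatin, and 0 members and 0 genes in HP_cisplatin against BL_cisplatin (1564 genes at an unadjusted p under 0.05) and in CR_cisplatin against HP_cisplatin (5553). With only the groups compared, 0 members passed in the 3 comparisons with HP_cisplatin, 0 genes against BL_cisplatin (4273 unadjusted) and CR_cisplatin (4353), 11 genes against BL_vehicle, and 80 genes in CR_cisplatin against BL_vehicle. With no filter, 0 members and 0 genes (8511 unadjusted) passed in CR_cisplatin against HP_cisplatin and 15 genes in CR_cisplatin against BL_vehicle. Members that passed at an unadjusted p in these fits with 0 calls numbered 0 to 5.

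Without BL_cisplatin 4 and HP_cisplatin 2, 8 members passed in BL_cisplatin against BL_vehicle (10010 genes) and in CR_cisplatin against BL_cisplatin (10045 genes). In HP_cisplatin against BL_cisplatin 2 passed (2410 genes), and in CR_cisplatin against HP_cisplatin 4 (2934 genes). Without CR_cisplatin 4 and HP_cisplatin 4 the counts were 0 (2473 genes) in HP_cisplatin against BL_cisplatin, 5 (6959 genes) in CR_cisplatin against HP_cisplatin and 5 (7525 genes) in HP_cisplatin against BL_vehicle. With each library left out in turn, members passing ranged from 4 to 8 in BL_cisplatin against BL_vehicle (9363 to 10454 genes) and in CR_cisplatin against BL_cisplatin (9390 to 10441 genes). The range was 0 to 4 in HP_cisplatin against BL_cisplatin (2210 to 7156 genes) and 0 to 5 in CR_cisplatin against HP_cisplatin (0 to 7654 genes). It was 1 to 5 in HP_cisplatin against BL_vehicle (692 to 7709 genes) and 0 in CR_cisplatin against BL_vehicle (4 to 17 genes). The cause of these moves was not tested.

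Of 1350 values under alternatives (54 member values in 25 alternatives each), 48 had the opposite direction, in 15 of the 54, and none of these passed on either side. In CR_cisplatin against HP_cisplatin, C1qa was -0.05 with the prefix, -0.02 with TPM rescaled and -0.06 with voom, and C4b was 0.28 without BL_cisplatin 4 and HP_cisplatin 2. In CR_cisplatin against BL_vehicle, Cfb was 0.00 with a pseudocount of 0.1 and -0.01 with the prefix and with TPM rescaled. C1qa and C1qc there were -0.01 and -0.06 with the prefix, and 0.00 and -0.02 without CR_cisplatin 4 and HP_cisplatin 4. The latter pair left out gave C3 0.32 and Cd55 0.14 in HP_cisplatin against BL_cisplatin, and C1qa -0.01 and C1qb -0.05 in HP_cisplatin against BL_vehicle. There, C1qb was 0.00 with a pseudocount of 0.1, and C1qa was -0.10 and C1qb -0.15 without BL_cisplatin 4 and HP_cisplatin 2, where Cfi in BL_cisplatin against BL_vehicle was -0.13.

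With single libraries left out, Cfi in BL_cisplatin against BL_vehicle ranged from -0.13 to 0.33. In HP_cisplatin against BL_cisplatin C3 ranged from -0.90 to 0.32 and Cd55 from -0.33 to 0.14. In CR_cisplatin against HP_cisplatin the ranges were -0.14 to 0.15 for C1qa, -0.09 to 0.26 for C1qb, -0.03 to 0.25 for C1qc and -0.41 to 0.28 for C4b. In CR_cisplatin against BL_vehicle they were -0.07 to 0.06 for Cfb, -0.01 to 0.18 for C1qa, -0.06 to 0.16 for C1qc and -0.17 to 0.00 for Cd55. In HP_cisplatin against BL_vehicle they were -0.10 to 0.19 for C1qa, -0.15 to 0.20 for C1qb, -0.22 to 0.06 for C1qc and -0.42 to 0.27 for C4b. No paired analysis was possible because the labels number no replicates. Depth limits Cfi most, with as few as 54 reads in a library.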
